A study of Homo sapiens with 12 samples.

Results

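Ribosome biogenesis and nucleolar genes were followed in human bronchial epithelial cells (HBEC), a laboratory line of airway lining cells, as 37 genes picked by symbol. Every probe that the array annotation gives to 1 of these symbols was taken, which found 57 probes for 35 of the genes among 47323 probes on the array. WDR43 and GNL3 had no probe named in the annotation used. Of the 35 genes, 33 were tested among 11918 genes in all. POLR1A was detected on 1 array only and the single probe of NPM1, which is annotated to 1 of its transcripts, on 0 arrays, so neither was tested. The 33 comprise 2 Pol I subunits, 8 small subunit factors, 10 large subunit factors, 8 proteins of RNA modification and 5 nucleolar proteins that act at several steps.

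All cells carried a stable transgene for the receptor EGFR, in wild-type form (WT), as L858R, a kinase domain substitution, or as the form that the labels call E746-E750 after residues of the same domain. The promoter of the transgene and the number of clones behind each line are not given in the sources used here. Every group grew in serum-free keratinocyte medium with EGF and pituitary extract, and was held aerobic at 21% O2 or made hypoxic at 0.1% O2 for 24 h. This gave 6 groups of 2 arrays each. Whether both samples of a group are separate cultures is not stated, so the p-values here reflect how far these samples differ, a spread that could be purely technical.

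Ribosomes are made in the nucleolus. RNA polymerase I transcribes a long precursor of the 18S, 5.8S and 28S ribosomal RNAs, small nucleolar ribonucleoproteins guide methylation and pseudouridylation of that precursor, and separate sets of assembly factors cut, fold and export the small and the large subunit. The process takes a large share of the energy of a growing cell, many of its genes are known targets of MYC, and its rate is known to follow growth signals and nutrient and oxygen supply.

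Between 14161 and 18171 probes were detected on each array, and the upper quartile of raw intensity was 128 to 207. The replicates of 5 groups correlated at 0.983 to 0.997 over the kept probes (Pearson), and those of hypoxic L858R cells at 0.849. Of the 33 members, 10 differed by more than 1 log2 unit between both hypoxic L858R arrays, against 2 in hypoxic E746-E750 cells and 0 in each other group. All 9 markers of airway basal epithelium with a probe, KRT5 and KRT14 among them, were detected on all 12 arrays, with a summed level of 15.01 to 15.24 (log2) on aerobic and 14.48 to 15.66 on hypoxic arrays. Of other cell types, the endothelial markers CDH5, KDR and VWF, the leukocyte markers CD3E and PTPRC and the mesenchymal markers COL3A1, DCN and LUM were detected on 0 arrays. The endothelial markers PECAM1 and TEK were detected on some arrays but not on all. Of 6 secretory and ciliated markers with a probe, 3 were detected on 0 arrays, and of 5 alveolar markers 2 were. In these lists 0 were detected on all 12 arrays. The leukocyte list as a whole, which includes CD14 and CD68 detected on all 12 arrays, ran from 10.07 to 10.42 aerobic and from 10.28 to 11.75 hypoxic; its part in the results was not tested. Of the 8 mesenchymal markers, ACTA2 and TWIST1 were detected on all 12 arrays, and that list summed to 11.001 to 11.12 aerobic and 10.95 to 12.01 hypoxic, with its part not tested either. Aerobic samples sit on the first 6 positions of the chip and hypoxic samples on the last 6, so position and oxygen cannot be told apart.

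Hypoxia lowered most of the members in each of the 3 lines, and none of the 33 rose. In WT cells 24 fell, in L858R cells 19 and in E746-E750 cells 19 (limma, Benjamini-Hochberg adjusted p under 0.05). Among all 11918 genes, 7.71% were called lower in WT, 12.6% in L858R and 11.1% in E746-E750 cells, and 5.37%, 16.1% and 16% were called higher. The median member changed by -1.46 log2 units in WT, -1.10 in L858R and -1.21 in E746-E750 cells, while the median of all genes was -0.03, 0.09 and 0.10. On 26 of the 33 members every hypoxic array lay below every aerobic array, as did 9.3% of all genes; 0 members lay above on every hypoxic array, against 10.3% of all genes. Averaged over the 3 lines, 31 members were called lower, against 19.8% of all genes; FBL and UTP20 were the exceptions. In a bulk sample, a smaller number of cells that express a gene and less RNA per cell cannot be told apart.

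**Figure D1:**
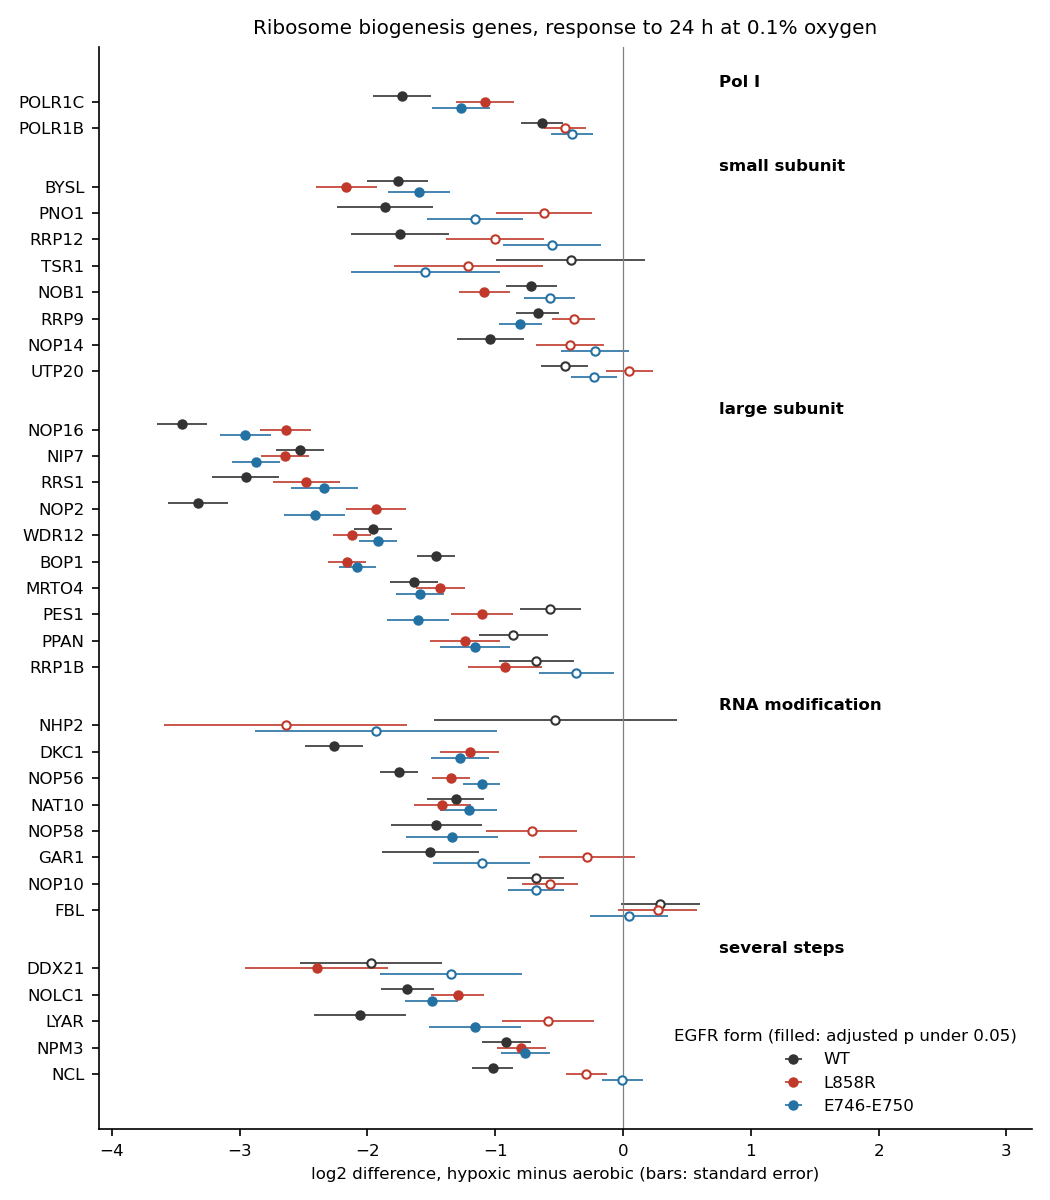
Log2 difference between hypoxic and aerobic cells for the 33 tested members, ordered by step, in WT (black), L858R (red) and E746-E750 (blue) cells; bars are standard errors of the limma fit, n = 2 arrays per group, and filled points have an adjusted p under 0.05. No filled point lies right of 0, and the points farthest left are the large subunit factors NOP16 and NOP2 in WT cells, at -3.45 and -3.32.

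Calls in all 3 lines were made for 14 members: POLR1C, BYSL, NOP16, NOP2, RRS1, BOP1, WDR12, NIP7, MRTO4, NOP56, DKC1, NAT10, NPM3 and NOLC1. Over all genes, 3.39% were called lower in all 3 lines. In L858R cells these calls rest on an error shared with groups of closer replicates. Of the 19 L858R calls, 0 were kept in every alternative fit. With only the arrays compared all were lost, in a fit that called no gene in that line, and with array weights some were. Together 28 members fell in at least 1 line, as did 18% of all genes, and UTP20, TSR1, FBL, NHP2 and NOP10 in 0. The counts per line depended on the spread of the hypoxic L858R arrays, which enters every comparison through the pooled error. Without these arrays 30 members were called lower and 1, FBL, higher in WT cells, when 40.3% of all genes were called in either direction, and 29 were called lower in E746-E750 cells, when 58.6% of all genes were. Without replicate 2 alone, L858R cells had 27 members lower and 0 higher at 46.9% of all genes called, and without replicate 1 they had 24 lower and 3 higher, FBL, GAR1 and UTP20, at 70.5%. Other arrays lowered the counts: WT cells had 13 called without aerobic WT replicate 2, and 14 without any 1 of the other 3 WT arrays, at 4.41% to 5.71% of all genes. L858R cells had 13 without their aerobic replicate 1, at 13.6%. The lowest E746-E750 count was 14, without aerobic replicate 1, at 13.2%.

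The large subunit factors lay lowest on every hypoxic array except WT replicate 2, where the proteins of several steps lay lower. Their median, relative to the aerobic mean of the same line, was -1.87 and -1.72 on the WT arrays, -2.19 and -1.82 on the L858R arrays and -2.03 and -1.96 on the E746-E750 arrays. The median over all members was -1.56 and -1.46, -1.30 and -1.04, and -1.22 and -1.11 on the same arrays. Between 17 and 21 members lay more than 1 log2 unit lower on each hypoxic array, and 0 lay more than 1 unit higher on any. Differences between steps were not tested.

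**Figure D2:**
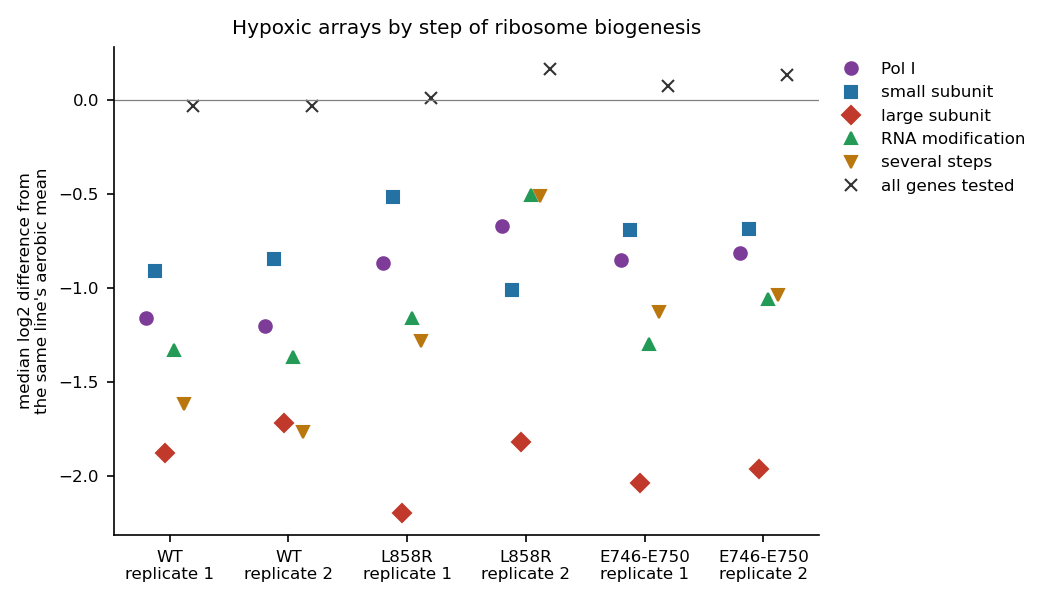
Median log2 difference from the aerobic mean of the same line on each of the 6 hypoxic arrays, for the tested members of each step and for all genes tested. All medians of the steps lie at -0.51 or lower and those of all genes between -0.03 and 0.16; the Pol I median rests on 2 members and that of several steps on 5.

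The genes' promoters were read for the letters CACGTG, the E-box that MYC and MAX are known to bind, and for ACGTG and GCGTG, letters of the known binding sites of the hypoxia-inducible factors. Windows of 300 bases, 250 before the annotated start and 50 from it on, came from RefSeq for GRCh38.p14 and covered 31 of the 37 members. The E-box stood in 16 of these 31 members (51.6%), in 12.3% of the 9586 tested genes with a window and in 8.77% of all 27305 genes with a window. CACGTG reads the same on both strands, and each E-box also holds ACGTG. Searched on both strands, ACGTG was found in 66.7% of the 27 tested members and 32.3% of tested genes, and GCGTG in 74.1% and 57.5%. By call, the E-box stood in 4 of 11 members called lower in all 3 lines (36.4%) and in 10 of the 16 other tested members (62.5%). A match is a description of the letters and not a measured binding site.

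Windows of 6 members are printed, each from 100 bases before the start to 50 from it on, to set the 4 members with an E-box that fell in all 3 lines (NOP2, MRTO4, BYSL and NAT10) beside NOP16, which fell most and holds none, and FBL, which holds one and was not called. Capitals mark the E-box, and distances run from the start to its first base, negative upstream. They read 5′ to 3′ on the strand of the gene. NOP2 (chr12:6568242-6568391, minus strand) has its E-box at 35, MRTO4 (chr1:19251705-19251854, plus strand) at 14, BYSL (chr6:41921399-41921548, plus strand) at 28, NAT10 (chr11:34105529-34105678, plus strand) at -15 and FBL (chr19:39846330-39846479, minus strand) at 6; NOP16 lies at chr5:176388549-176388698 on the minus strand.
NOP2: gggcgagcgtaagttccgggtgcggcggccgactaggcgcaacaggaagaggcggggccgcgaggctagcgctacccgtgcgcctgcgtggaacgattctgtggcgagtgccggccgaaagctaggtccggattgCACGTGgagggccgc
MRTO4: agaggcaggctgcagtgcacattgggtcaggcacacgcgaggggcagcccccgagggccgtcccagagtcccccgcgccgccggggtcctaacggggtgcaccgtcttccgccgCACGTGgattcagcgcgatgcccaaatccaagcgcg
BYSL: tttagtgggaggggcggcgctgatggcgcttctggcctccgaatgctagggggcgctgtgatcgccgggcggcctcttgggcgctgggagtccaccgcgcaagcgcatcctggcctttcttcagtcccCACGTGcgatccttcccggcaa
NAT10: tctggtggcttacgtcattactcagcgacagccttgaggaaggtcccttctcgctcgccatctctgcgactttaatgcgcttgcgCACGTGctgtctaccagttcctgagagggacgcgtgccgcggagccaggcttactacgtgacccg
NOP16: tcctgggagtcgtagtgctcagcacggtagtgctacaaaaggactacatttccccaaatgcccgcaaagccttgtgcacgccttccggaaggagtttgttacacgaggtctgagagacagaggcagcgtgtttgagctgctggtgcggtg
FBL: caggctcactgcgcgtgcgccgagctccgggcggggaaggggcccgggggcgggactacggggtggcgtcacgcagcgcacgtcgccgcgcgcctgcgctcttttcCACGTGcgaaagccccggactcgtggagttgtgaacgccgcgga

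**Figure D3:**
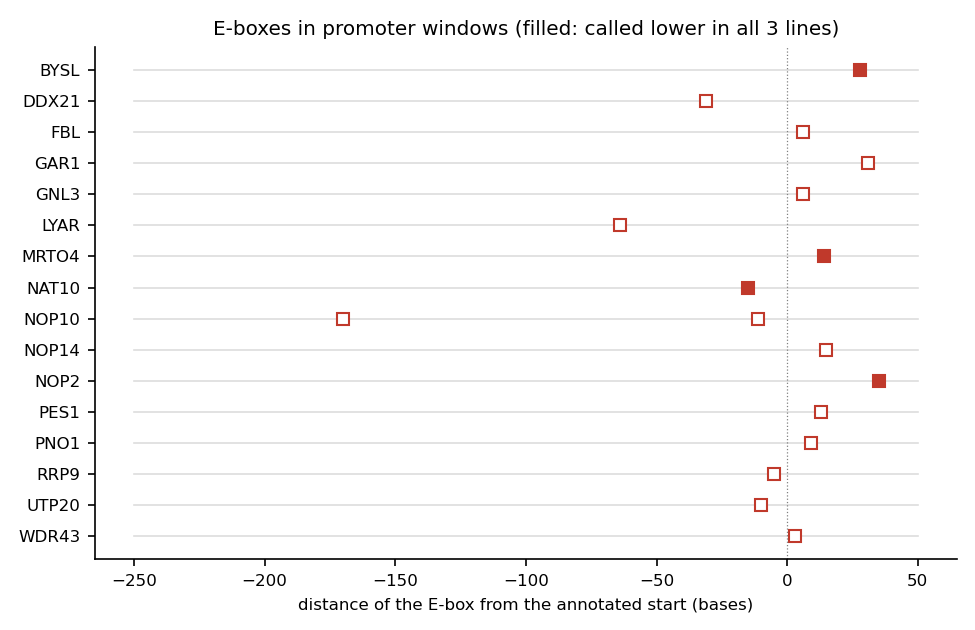
Position of each CACGTG in the promoter windows of the 16 members that hold one, in bases from the annotated start; grey lines are the window from 250 bases before the start to 50 from it on, and filled squares are members called lower in all 3 lines. Of the 17 E-boxes, 16 lie within 65 bases of the start, and the other, in NOP10, lies at -170.

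RNA polymerase I was represented by POLR1B, its second-largest subunit, and POLR1C, a subunit it shares with RNA polymerase III. Levels are log2 of normalized intensity, with replicates 1 and 2 in that order. POLR1C read 10.03 and 9.98 in aerobic WT, 9.93 and 9.98 in L858R and 10.005 and 10.14 in E746-E750 cells, and 8.40 and 8.15, 8.51 and 9.24, and 8.67 and 8.94 in the same lines under hypoxia. No hypoxic array reached the aerobic range. The fall was 3.31-fold in WT (log2 difference -1.73 ± 0.23 SE, adjusted p = 0.00185), 2.12-fold in L858R (-1.08, adjusted p = 0.00857) and 2.40-fold in E746-E750 cells (-1.27, adjusted p = 0.00414, limma). A second probe fell in each line too, by 1.33, 1.51 and 1.10. POLR1B read 6.99 and 6.89, 6.91 and 6.95, and 6.66 and 6.92 aerobic, and 6.23 and 6.39, 6.65 and 6.31, and 6.49 and 6.30 hypoxic. This POLR1B probe was not detected in hypoxic WT cells, where it was at least 1.44-fold lower (limma, adjusted p = 0.0383). L858R cells differed by -0.45 (adjusted p = 0.07) and E746-E750 cells by -0.40 (adjusted p = 0.111), neither called. In the fit over all kept probes, 1 of the 2 POLR1B probes was called in WT cells. The second probe gave -0.27 in L858R and -0.07 in E746-E750 cells with no call.

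Of the 8 small subunit factors, 6 fell in WT, 2 in L858R and 2 in E746-E750 cells, with medians of -0.88, -0.81 and -0.69. BYSL, or bystin, a factor of the early small subunit particle, was the only one to fall in all 3 lines. Its aerobic levels were 8.93 and 8.74 in WT, 8.86 and 8.87 in L858R and 9.002 and 8.91 in E746-E750 cells, and its hypoxic levels 7.11 and 7.04, 7.12 and 6.29, and 7.26 and 7.46. All 6 hypoxic arrays lay more than 1 unit under all 6 aerobic ones, and the falls were 3.40-fold, 4.48-fold and 3.02-fold (adjusted p = 0.00215, 0.000409 and 0.00167, limma). In L858R cells the probe was detected on 1 of 2 hypoxic arrays, which limits the size of that fall.

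PNO1, the RNA-binding partner of the nuclease NOB1, which makes the last cut of 18S ribosomal RNA, read 8.07 and 8.34 in aerobic WT cells and 6.37 and 6.32 in hypoxic ones, where it was not detected and at least 3.46-fold lower (limma, adjusted p = 0.0134). In L858R cells it went from 8.07 and 8.18 to 6.79 on replicate 1 and 8.23 on replicate 2, so the groups overlapped, and in E746-E750 cells from 8.10 and 8.36 to 7.02 and 7.13, a difference of -1.16 that missed the threshold (adjusted p = 0.0507). NOB1 itself fell by 0.72 in WT and 1.08 in L858R cells (adjusted p = 0.0484 and 0.00461) and differed by -0.57 in E746-E750 cells (adjusted p = 0.0652). RRP12, a factor of preribosome export in yeast, read 8.15 and 8.21 in aerobic and 6.47 and 6.40 in hypoxic WT cells, a fall of 1.74 ± 0.38 SE (adjusted p = 0.0196). On the hypoxic L858R arrays it stood at 7.54 and 6.02, against 7.70 and 7.86 aerobic, which shows how far those replicates part, and in E746-E750 cells it went from 7.78 and 7.89 to 7.29 and 7.26 without a call (-0.56, adjusted p = 0.327).

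RRP9, a protein of the U3 particle that guides the first cuts, fell in WT and E746-E750 cells to below detection, by at least 1.33-fold and 1.40-fold (limma, adjusted p = 0.0346 and 0.00873). NOP14, of the same early complex, fell by 1.04 in WT cells (limma, adjusted p = 0.0356) and differed by -0.41 and -0.22 in the mutant lines. Its second probe gave -0.51 in WT cells, where 1 of its 2 probes was called in the fit over all kept probes. The WT call was lost with the mean of a gene's probes. UTP20, a large scaffold of that complex, was detected on 3 arrays and had the highest mean change of the step. It read 6.59 and 6.40, 6.42 and 6.31, and 6.41 and 6.40 aerobic and 6.01 and 6.06, 6.13 and 6.70, and 6.19 and 6.16 hypoxic, and no line was called.

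Large subunit factors held the widest changes of the set. In WT cells 7 of the 10 fell, in L858R cells 10 and in E746-E750 cells 9, with medians of -1.80, -2.03 and -2.00. NOP16, a nucleolar factor of early large subunit assembly in yeast, fell most when averaged over the lines, 8.09-fold. It read 10.22 and 10.16 in aerobic WT, 10.19 and 9.83 in L858R and 10.37 and 10.38 in E746-E750 cells, and 6.78 and 6.69, 7.10 and 7.63, and 7.32 and 7.52 after hypoxia. At least 2 log2 units separate the lowest aerobic from the highest hypoxic array. The falls were 10.9-fold in WT (-3.45 ± 0.20 SE, limma adjusted p = 3.53e-05), 6.24-fold in L858R (adjusted p = 6.13e-05) and 7.75-fold in E746-E750 cells (adjusted p = 2.93e-05). A second NOP16 probe gave -3.36, -3.38 and -3.61. It was detected on 1 of 2 hypoxic L858R arrays.

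NIP7, counted here among the large subunit factors, had aerobic levels of 10.27 and 10.46, 10.26 and 10.38, and 10.58 and 10.55. Its hypoxic levels were 7.68 and 7.98, 7.44 and 7.92, and 7.60 and 7.78. Its fall was 5.78-fold in WT, 6.24-fold in L858R and 7.32-fold in E746-E750 cells (limma, adjusted p = 0.000108, 4.77e-05 and 2.74e-05). RRS1, which in yeast brings the 5S ribosomal RNA particle into the large subunit, stood at 9.44 and 9.55, 9.34 and 9.37, and 9.10 and 9.28 aerobic and at 6.56 and 6.53, 6.44 and 7.32, and 6.66 and 7.05 hypoxic. It fell 7.74-fold, 5.57-fold and 5.06-fold in WT, L858R and E746-E750 cells (adjusted p = 0.000246, 0.000315 and 0.000377). In both genes the aerobic and hypoxic arrays were fully apart in each line.

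**Figure D4:**
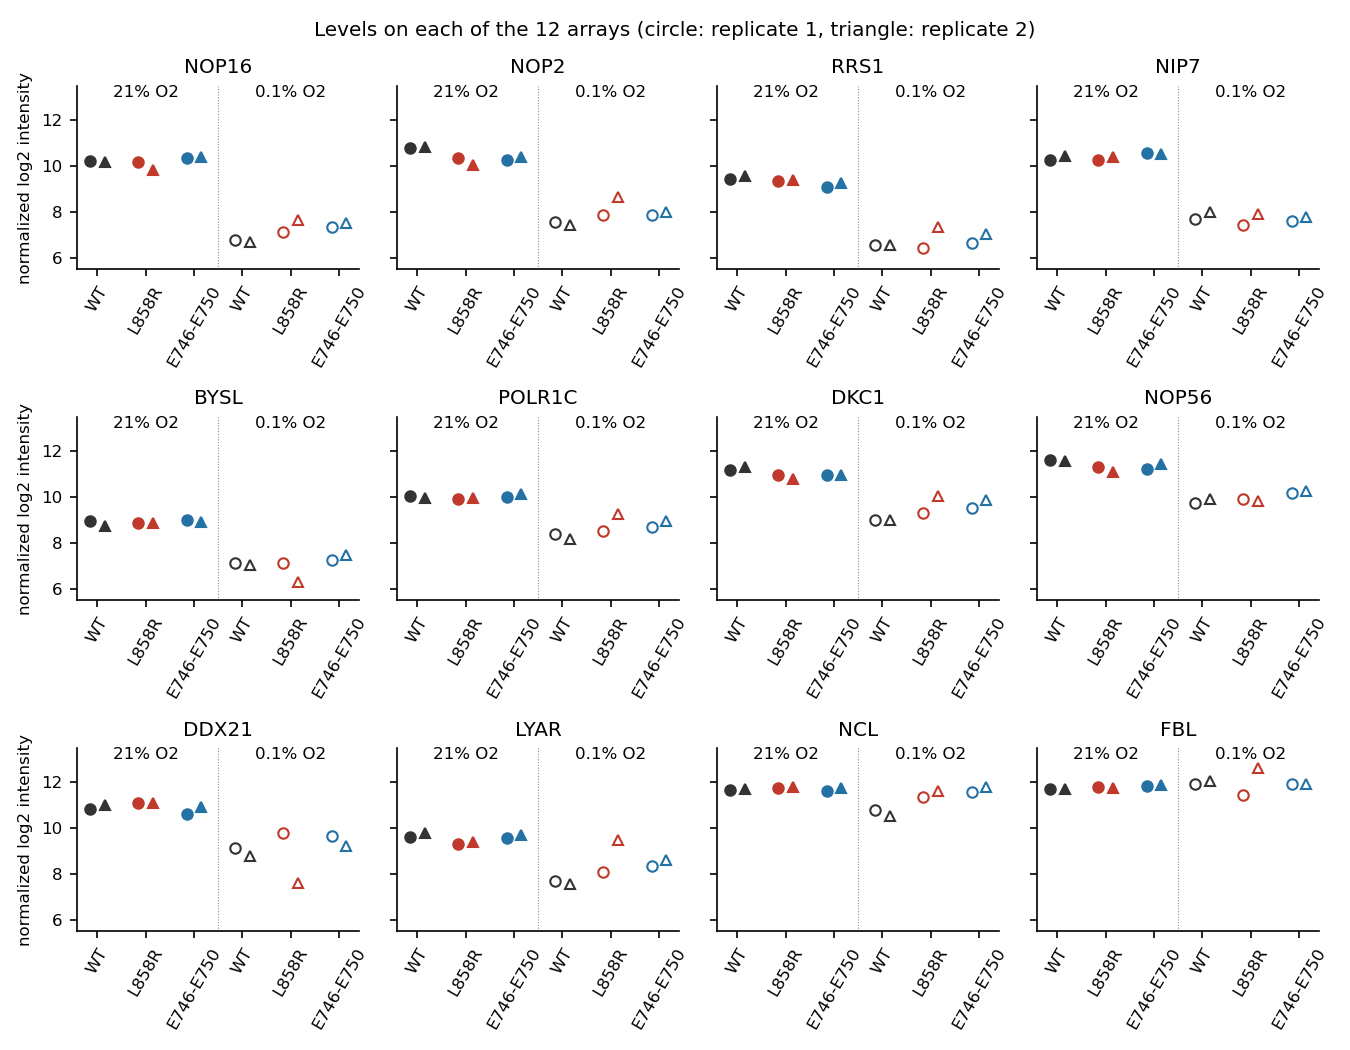
Normalized log2 intensity of 12 members on each of the 12 arrays, aerobic at the left (filled) and hypoxic at the right (open) of each panel; circles are replicate 1 and triangles replicate 2, and panels are not comparable in level because each gene has its own probe. NOP16, NOP2, RRS1, NIP7, BYSL, POLR1C, DKC1 and NOP56 have all 6 hypoxic arrays below all 6 aerobic arrays, while DDX21 and LYAR part the 2 hypoxic L858R arrays and FBL lies at 11.43 to 12.62 under hypoxia.

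NOP2, a methyltransferase of 28S ribosomal RNA once used as a proliferation marker, read 10.79 and 10.85 in aerobic WT, 10.34 and 10.04 in L858R and 10.26 and 10.39 in E746-E750 cells. Under hypoxia it stood at 7.58 and 7.42, 7.86 and 8.64, and 7.85 and 7.98. The fall was 10.01-fold in WT (-3.32 ± 0.24 SE, adjusted p = 9.46e-05), 3.82-fold in L858R (adjusted p = 0.000641) and 5.32-fold in E746-E750 cells (adjusted p = 0.000203, limma). It passed the test with each of its 3 kept probes in each line, but the other 2 were dim and mostly undetected under hypoxia. In WT cells, where neither was detected, they were at least 3.71-fold and 2.22-fold lower (adjusted p over all kept probes = 0.000751 and 0.00255). In L858R cells, with detection on 1 of 2 hypoxic arrays, they gave -1.67 and -0.97. In E746-E750 cells one was undetected and at least 3.11-fold lower (adjusted p = 0.000599), and the other, detected on 1 of 2 hypoxic arrays, gave -0.93.

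BOP1, PES1 and WDR12 form the PeBoW complex, which is needed to mature the 28S and 5.8S ribosomal RNAs. BOP1 read 11.02 and 10.90, 10.78 and 10.76, and 11.31 and 11.32 aerobic and 9.39 and 9.61, 8.45 and 8.77, and 9.25 and 9.23 hypoxic, and fell 2.76-fold in WT, 4.46-fold in L858R and 4.22-fold in E746-E750 cells (limma, adjusted p = 0.00049, 4e-05 and 4.22e-05). WDR12 was even across the lines: 9.83 and 9.93, 10.12 and 9.97, and 9.82 and 10.14 aerobic against 7.91 and 7.94, 7.98 and 7.88, and 7.98 and 8.15 hypoxic, which makes 3.88-fold, 4.34-fold and 3.77-fold lower (adjusted p = 0.000127, 4.51e-05 and 6.7e-05). PES1, their partner in the complex, read 8.20 and 8.23 in hypoxic WT cells against 8.76 and 8.81 aerobic, a difference of -0.57 that was not called (adjusted p = 0.175). In the mutant lines PES1 fell, from 8.69 and 8.50 to 7.06 and 7.92 in L858R (-1.10 ± 0.24 SE, adjusted p = 0.00986) and from 8.77 and 8.74 to 7.14 and 7.15 in E746-E750 cells (-1.60, adjusted p = 0.00163). Its response was not called different from that of WT cells in either mutant line in the main fit. The difference was -1.035 in E746-E750 cells, and some alternative fits called it.

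MRTO4, a paralogue of the ribosomal stalk protein P0 that holds its place during assembly, read 9.01 and 8.92, 8.93 and 8.83, and 9.50 and 9.25 aerobic and 7.18 and 7.47, 7.20 and 7.70, and 7.73 and 7.84 hypoxic. It was 3.10-fold, 2.69-fold and 3.01-fold lower (limma, adjusted p = 0.000976, 0.000938 and 0.00053). PPAN, whose yeast relatives act early on the large subunit, differed by -0.86 in WT cells (adjusted p = 0.0776) and fell by 1.24 and 1.16 in L858R and E746-E750 cells (adjusted p = 0.0105 and 0.014). In each mutant line the PPAN probe was detected on 1 of 2 hypoxic arrays. RRP1B, a relative of a yeast processing factor, changed least in the step when averaged over the lines. Its levels were 7.61 and 7.60, 7.62 and 7.71, and 7.62 and 7.57 aerobic and 6.91 and 6.94, 7.27 and 6.21, and 7.41 and 7.05 hypoxic, and it passed the test in L858R cells only (-0.92 ± 0.29 SE, adjusted p = 0.0442). There it was detected on 1 of 2 hypoxic arrays, and replicate 1 lay at -0.39 from the aerobic mean. The call was lost with median centring, the authors' values and array weights, among others.

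RNA modification splits into 2 kinds of guide particle. Box C/D particles place methyl groups with the methyltransferase fibrillarin, FBL, on a core that includes NOP56 and NOP58. Box H/ACA particles make pseudouridine with the synthase dyskerin, DKC1, bound by GAR1, NHP2 and NOP10; the same proteins belong to telomerase. Across these genes and NAT10, which acetylates 18S ribosomal RNA, 5 of 8 fell in WT, 3 in L858R and 4 in E746-E750 cells.

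In the box C/D core NOP56 read 11.63 and 11.56, 11.34 and 11.10, and 11.22 and 11.47 aerobic and 9.74 and 9.93, 9.91 and 9.83, and 10.19 and 10.28 hypoxic, a fall of 1.75, 1.35 and 1.11 (SE 0.15 each; limma, adjusted p = 0.000216, 4e-04 and 0.000934). NOP58 stood at 10.33 and 10.56 in aerobic and 9.14 and 8.83 in hypoxic WT cells, and fell there by 1.46 and in E746-E750 cells by 1.34 (adjusted p = 0.031 and 0.0248), while the hypoxic L858R arrays read 8.87 and 10.23, the second within 0.1 of the aerobic 10.29 and 10.24. FBL, the enzyme, was not called in any line. It read 11.71 and 11.71, 11.78 and 11.73, and 11.85 and 11.89 aerobic and 11.94 and 12.07, 11.43 and 12.62, and 11.91 and 11.93 hypoxic, differences of 0.29 ± 0.31 (SE), 0.27 and 0.05 (adjusted p = 0.658, 0.532 and 0.932). In each line the brightest NOP56 probe was called lower and FBL was not called. In E746-E750 cells 2 of the 3 NOP56 probes were called in the fit over all kept probes, and the other gave -0.31. The difference between the genes was not tested.

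Among the box H/ACA proteins, DKC1 read 11.20 and 11.32, 10.95 and 10.79, and 10.96 and 10.96 aerobic and 8.999 and 9.003, 9.30 and 10.03, and 9.52 and 9.86 hypoxic. It fell 4.79-fold in WT, 2.30-fold in L858R and 2.42-fold in E746-E750 cells (limma, adjusted p = 0.00049, 0.00519 and 0.00395). NOP10 missed the threshold by its brightest probe, at -0.68, -0.57 and -0.68 (adjusted p = 0.0821, 0.0858 and 0.0513), and passed it by the second probe in each line, at -0.69, -0.77 and -0.61 (adjusted p over all kept probes = 0.0165, 0.00434 and 0.0128). NAT10 read 10.52 and 10.55, 10.29 and 10.28, and 10.18 and 10.18 aerobic and 9.19 and 9.26, 8.50 and 9.24, and 8.82 and 9.14 hypoxic, and fell by 1.31, 1.41 and 1.21 (SE 0.22 each; adjusted p = 0.00602, 0.00219 and 0.00467).

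NHP2 was the member on which the arrays of one group parted most. Its brightest probe read 12.63 and 12.75, 12.57 and 12.62, and 12.78 and 12.78 aerobic, then 12.13 and 12.20 in hypoxic WT, 11.83 and 8.08 in L858R and 11.40 and 10.30 in E746-E750 cells. The lowest value is that of L858R replicate 2, 3.75 below its partner. No line was called with this probe (differences of -0.53, -2.64 and -1.93, SE 0.95), and 2 of the other 3 probes were called lower in L858R cells, at -1.96 and -1.36 (adjusted p over all kept probes = 0.0441 and 0.0423).

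GAR1 had 4 kept probes that disagreed in the mutant lines. The brightest read 10.46 and 10.69, 10.29 and 10.38, and 10.65 and 10.59 aerobic and 9.02 and 9.12, 9.32 and 10.79, and 9.39 and 9.63 hypoxic, with a call in WT cells only (-1.51 ± 0.38 SE, adjusted p = 0.0335). A second probe went from 8.34 and 8.48 to 6.42 and 6.09 in L858R cells, and another from 8.29 and 8.28 to 8.19 and 9.47. So the same gene was called lower, at -2.16 with detection on 1 of 2 hypoxic arrays, or differed by 0.55 without a call in that line. In hypoxic E746-E750 cells the second probe was not detected and was at least 4.86-fold lower (adjusted p over all kept probes = 6.6e-05), while the other 3 ran from -1.31 to -0.20. In WT cells they ran from -1.51 to -0.89.

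TSR1, a GTPase-like factor of late small subunit maturation, had a second probe that was called in the other direction from most members. Its brightest probe read 8.36 and 8.52, 8.23 and 8.34, and 8.27 and 8.36 aerobic and 7.999 and 8.07, 8.13 and 6.02, and 7.30 and 6.24 hypoxic, with no call. The second was detected on 0 aerobic arrays, on 1 of the hypoxic L858R arrays and on both hypoxic E746-E750 arrays, so it was kept only through the groups where it is high. It read 6.08 and 6.05, 6.03 and 5.94, and 6.05 and 5.96 aerobic and 5.89 and 6.13, 6.32 and 6.85, and 6.72 and 6.97 hypoxic, and was at least 1.15-fold higher in L858R and at least 1.32-fold higher in E746-E750 cells. The filter favours a rise of such a probe, so its calls are not read as a result. It is the one member probe of 52 called higher in any hypoxia response, against 28 to 34 called lower per line; over all 21237 kept probes, 5.66% were called lower in WT, 14% in L858R and 13.1% in E746-E750 cells.

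Probes of 1 gene parting by more than 1 log2 unit was a feature of the hypoxic mutant arrays at large. Only the 2 brightest kept probes of each gene were compared, each relative to its own aerobic mean. They parted in at most 0.0311% of the 3213 genes with several kept probes on any aerobic array. The share was 3.11% and 2.71% on the hypoxic WT arrays and 18.0% and 45.8% on the hypoxic L858R arrays. On the hypoxic E746-E750 arrays it was 20.2% and 27.3%. Of the 13 members with several probes, 1 and 1, 1 and 4, and 2 and 2 parted on these hypoxic arrays. Dimmer probes do not enter, so GAR1 is not counted on the hypoxic L858R arrays (-0.81 and -0.62). The part of such parting in the differences between lines was not tested.

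**Figure D5:**
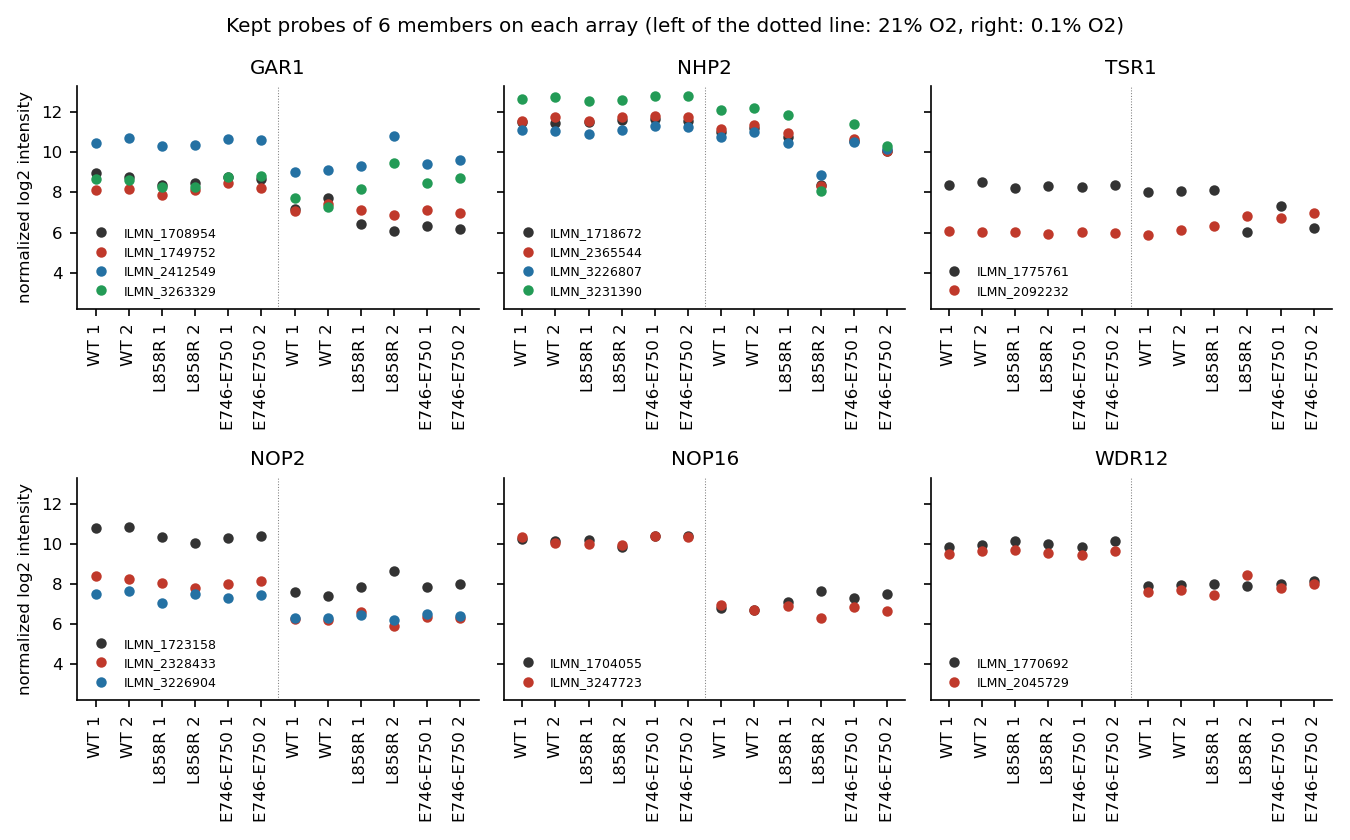
Normalized log2 intensity of every kept probe of 6 members on the 12 arrays, aerobic left and hypoxic right of the dotted line, 1 colour per probe. The probes of NOP16 and WDR12 fall in each line. Relative to their aerobic means, those of NOP16 part by 1.32 log2 units on hypoxic L858R replicate 2. Those of GAR1 and TSR1 part on the hypoxic L858R and E746-E750 arrays, and all 4 probes of NHP2 have their lowest point on L858R replicate 2.

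Among the nucleolar proteins of several steps, 4 of 5 fell in WT, 3 in L858R and 3 in E746-E750 cells. NOLC1, which escorts guide particles in the nucleolus, read 8.11 and 7.99, 8.19 and 8.11, and 7.95 and 8.11 aerobic and 6.43 and 6.29, 6.53 and 7.19, and 6.46 and 6.60 hypoxic. It fell in each line, with differences of -1.69, -1.29 and -1.497 (SE 0.21 each; limma, adjusted p = 0.00126, 0.00232 and 0.00109). NPM3, a nucleolar relative of nucleophosmin, had smaller and even falls, from 11.43 and 11.34 to 10.47 and 10.47 in WT, from 11.36 and 11.39 to 10.29 and 10.87 in L858R and from 11.28 and 11.53 to 10.55 and 10.73 in E746-E750 cells, which is 0.91, 0.80 and 0.77 (adjusted p = 0.0161, 0.0152 and 0.0184).

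DDX21, an RNA helicase of Pol I transcription and rRNA processing, read 10.85 and 11.01, 11.09 and 11.09, and 10.62 and 10.91 aerobic and 9.12 and 8.79, 9.79 and 7.61, and 9.64 and 9.20 hypoxic. All hypoxic arrays lay below all aerobic ones, yet the wide L858R pair left a call in that line only (-2.39 ± 0.56 SE, adjusted p = 0.0133); WT cells differed by -1.97 (adjusted p = 0.0519). LYAR, a nucleolar zinc finger protein, stood at 9.60 and 9.79, 9.32 and 9.41, and 9.58 and 9.69 aerobic and at 7.69 and 7.58, 8.09 and 9.46, and 8.36 and 8.60 hypoxic. It fell by 2.06 in WT and 1.16 in E746-E750 cells (adjusted p = 0.00682 and 0.0431), and in L858R cells replicate 2 was as high as the aerobic arrays.

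NCL, or nucleolin, one of the most abundant nucleolar proteins, was called lower in WT cells only, and there by 1 of its 2 kept probes. Its brightest probe read 11.66 and 11.69 in aerobic and 10.80 and 10.51 in hypoxic WT cells, a fall of 1.02 ± 0.16 SE (limma, adjusted p = 0.00418). In L858R cells it went from 11.75 and 11.79 to 11.34 and 11.62 (-0.29, adjusted p = 0.21), and in E746-E750 cells from 11.62 and 11.77 to 11.58 and 11.80 (0.00, adjusted p = 0.989). The second NCL probe gave -0.71, -0.68 and -0.42 in the 3 lines with no call.

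Between the lines at 21% O2, 0 of the 33 members were called in any pair. Over all genes 0.0252% were called between L858R and WT, 0.277% between E746-E750 and WT and 0.0336% between L858R and E746-E750, and at an unadjusted p under 0.05 limma counted 2, 1 and 2 members, where 5.5%, 7.73% and 2.27% of all genes lay under it. The member medians were -0.12, -0.01 and -0.09. NOP2 had the lowest of these values, -0.64 in L858R minus WT, and MRTO4 and BOP1 were at 0.41 and 0.35 in E746-E750 minus WT, none called. With the fit limited to the 4 arrays compared, 5, 7 and 2 members were called, beside 16.4%, 22.4% and 6.52% of all genes. These were RRP12, NOP2, NOP56, DKC1 and LYAR, all lower, in L858R against WT; RRP12, NOP2, RRS1, DKC1 and NAT10 lower and BOP1 and MRTO4 higher in E746-E750 against WT; and BOP1 and MRTO4 lower in L858R against E746-E750 cells.

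At 0.1% O2 the mutant lines differed from WT in few members, at shares below the background. BOP1 was lower in L858R than in WT cells (-0.89 ± 0.15 SE, limma adjusted p = 0.00435) and NCL higher (0.82 ± 0.16 SE, adjusted p = 0.00899), 2 of 33 members where 21.8% of all genes were called. Against WT, E746-E750 cells had PES1 lower (-1.07 ± 0.24 SE, adjusted p = 0.0172) and NOP16 and NCL higher (0.68 ± 0.20 and 1.03 ± 0.16 SE, adjusted p = 0.0444 and 0.00335), 3 of 33 where 17.8% of all genes were called. The second NOP16 probe gave -0.08 in this comparison (adjusted p over all kept probes = 0.83). The second NCL probe gave 0.07 in L858R and 0.68 in E746-E750 cells against WT (adjusted p over all kept probes = 0.871 and 0.141). These counts rested on the hypoxic L858R arrays: without replicate 1 the L858R comparison called 26 members and without replicate 2 it called 10, at 69.8% and 39.1% of all genes, and without both the E746-E750 comparison called 17, at 51.9%. The BOP1 call in L858R against WT cells and the NCL call in E746-E750 against WT cells were kept in every fit that left out 1 array. The BOP1 call and the NCL call in L858R cells were lost with array weights and with only the arrays compared.

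The response itself differed between lines for 2 members, tested as the interaction of line and oxygen. NOP2 fell less in L858R than in WT cells, by 1.39 ± 0.33 SE (limma, adjusted p = 0.0409), and the difference in E746-E750 cells was 0.91 (adjusted p = 0.154). For NCL, the response of E746-E750 cells lay above that of WT cells by 1.02 ± 0.23 SE (adjusted p = 0.0316), and the L858R difference was 0.73 (adjusted p = 0.0906). Each is 1 of 33 members, where 7.76% and 7.29% of all genes were called. The second NCL probe gave 0.29 with no call. The other NOP2 probes were undetected in hypoxic WT cells, so they give no size for the difference in response. Over the alternative settings the NOP2 difference was called in 10 of 25 fits (adjusted p from 2.04e-05 to 0.179) and the NCL difference in 14 of 26 (adjusted p from 0.000611 to 0.142).

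A wider list of 142 other genes of the pathway, of which 135 were tested, was called lower more often than higher in each line. In WT cells 49 fell and 0 rose, with a median of -0.68; in L858R cells 37 fell and 10 rose (median -0.29); in E746-E750 cells 39 fell and 7 rose (median -0.45). Of all genes, 7.71% fell and 5.37% rose in WT, 12.6% and 16.1% in L858R and 11.1% and 16% in E746-E750 cells. Averaged over the lines 72 fell and 10 rose, against 2355 and 2768 of all 11918 genes. Without the hypoxic L858R arrays 88 fell and 2 rose in WT cells and 77 fell and 20 rose in E746-E750 cells, beside the 40.3% and 58.6% of all genes called in either direction; without L858R replicate 2 alone, 73 fell and 13 rose in L858R cells, beside 46.9%. The lowest in WT cells were PAK1IP1, of early large subunit assembly (-2.13 ± 0.15 SE), LTV1, of late small subunit assembly (-2.11 ± 0.32 SE), ZNHIT6, of box C/D assembly (-2.10 ± 0.36 SE), and the large subunit factor MAK16 (-2.01 ± 0.37 SE). In the mutant lines RUVBL1, an ATPase that helps to assemble guide particles, lay lowest, at -3.55 ± 0.41 (SE) in L858R and -3.50 ± 0.41 in E746-E750 cells. Among called genes it was followed in L858R cells by GRWD1 (-2.11), TRMT112 (-2.05) and GNL3L (-1.81), and in E746-E750 cells by RUVBL2, the partner of RUVBL1 (-2.17), the exosome subunit EXOSC4 (-2.03) and GNL3L (-2.01).

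The members of the wider list that rose did so in the mutant lines. Highest in L858R cells were the helicase DDX51 (1.85 ± 0.51 SE), TAF1C, of the Pol I selectivity factor (1.38 ± 0.26 SE), EFL1, a GTPase of the last large subunit step (1.31 ± 0.17 SE), and EXOSC6 (1.28 ± 0.28 SE). In E746-E750 cells EFL1 (1.32), TSR3 (1.21), the Pol I terminator protein TTF1 (1.04) and the helicase DDX24 (0.97) led. Over all genes, 16.1% and 16% rose in these lines. Against WT under hypoxia, 5 genes of the wider list were lower and 24 higher in L858R cells, and 2 and 17 in E746-E750 cells. Of all genes, 971 were lower and 1624 higher there in L858R cells, and 755 and 1370 in E746-E750 cells. That is 21.8% and 17.8% in either direction. The response lay above that of WT cells for 10 genes in L858R and 5 in E746-E750 cells, and below it for 0. Over all genes, the response lay above that of WT cells for 518 and below it for 407 in L858R cells. In E746-E750 cells these were 516 and 353, and 7.76% and 7.29% of all genes differed in response in either direction. Counted in both directions, the list was called at shares near or under those of all genes in these comparisons with WT. Between aerobic lines 0 of the list were called. The list as a whole was not tested.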

How the data were processed

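RNA of 12 samples was read on Illumina bead arrays; per the labels' protocols it was labelled as biotinylated cRNA. The deposited raw table holds intensity per probe on a linear scale, with its background still in it, and gives neither control probes nor detection p-values. A second table from the authors gives quantile-normalized log2 values, which rank the probes as the raw intensities do; the sources used here do not say how its background was corrected. All sample columns were used. The sources used here name no genome build for the probes; promoter windows are RefSeq's for GRCh38.p14.

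Raw intensities were background corrected (normexp, offset 50), quantile normalized and log2 transformed (limma 3.58.1, R 4.3.3). A probe was detected on an array when above percentile 99 of the array's noise, taken as its peak reflected at the mode (bandwidth 0.02 on the log2 scale), and kept when detected on at least 2 of 12 arrays: 21237 probes, 16012 with a gene name. Of all probes, 30113 had 1 gene, 8 several and 17202 none. The brightest kept probe stood for its gene. A model of 6 group means (limma, 6 residual degrees of freedom) was fitted over 11918 genes, with two-sided tests adjusted by Benjamini-Hochberg within a comparison and called under 0.05. Second probes come from a fit over all kept probes. Where a whole group lay below detection, the fold was bounded with the detection level in its place. The procedure was tested on simulated data.

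The members, gene lists and rules were chosen with earlier results of these data known. Values on every array are given for the 2 lowest and the highest member of each step, members called in all 3 lines or between lines, and members whose probes differ by more than 1; of the wider list, the 4 lowest and 4 highest called per line. The labels do not say that a replicate number marks a shared culture or day, and correlations of same-numbered deviations were 0.75 between hypoxic L858R and hypoxic E746-E750 arrays and -0.20 to 0.21 otherwise, not all over 0.1, so the fit was not paired. Alternatives were other background, offset, scaling, filter and probe choices, the authors' values, other variance models, a replicate block, array weights and left-out arrays.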

Additional observations from a re-analysis of the deposited data

Results flagged for a closer look

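The response of NOP2, the 28S methyltransferase, to hypoxia differed between lines by the test of the difference itself: it lay 1.39 log2 units higher in L858R than in WT cells (limma interaction, adjusted p = 0.0409). L858R cells read 10.34 and 10.04 aerobic and 7.86 and 8.64 hypoxic, against 10.79 and 10.85 aerobic and 7.58 and 7.42 hypoxic in WT cells, so the aerobic levels differed too (by -0.64, not called). The call was made in 10 of 25 alternative fits (adjusted p from 2.04e-05 to 0.179). The response of NCL, or nucleolin, lay 1.02 log2 units higher in E746-E750 than in WT cells by the same test (adjusted p = 0.0316), with aerobic levels of 11.62 and 11.77 against 11.66 and 11.69 and hypoxic levels of 11.58 and 11.80 against 10.80 and 10.51. That call was made in 14 of 26 alternative fits (adjusted p from 0.000611 to 0.142). It was lost with the mean of a gene's probes. The second NCL probe changed by -0.71 in WT and -0.42 in E746-E750 cells, and its difference in response was not called. Each call is 1 of 33 members, a share under the 7.76% (L858R) and 7.29% (E746-E750) of all genes called. The cause of either difference was not tested.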

How the results depend on the processing

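No called change of a member turned its direction under any setting that was run. Of the calls, 13 of 24 in WT, 13 of 19 in L858R and 14 of 19 in E746-E750 cells were kept in every fit that left out 1 array, and 28 of 31 for the average over the lines. In these fits the lone array of a group is taken to vary like the other groups.

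Leaving out 1 array gave 13 to 31 members called in the hypoxia response of WT, 13 to 27 of L858R and 14 to 29 of E746-E750 cells, and 28 to 32 on average; at these lowest and highest counts 4.72% and 40.3%, 13.6% and 70.5%, 13.2% and 58.6%, and 33.6% and 71.8% of all genes were called. The lowest WT counts, 13 and 14, came without either WT array at either oxygen level, the lowest L858R and E746-E750 counts without one of their own aerobic arrays, and each highest count without a hypoxic L858R array. Between lines it gave 0 to 2, 0 to 1 and 0 to 1 aerobic (L858R and E746-E750 against WT, then L858R against E746-E750), 1 to 26 and 1 to 17 hypoxic (L858R and E746-E750 against WT), and 0 to 23 and 0 to 14 for the differences in response, where the highest counts stood beside 69.8% and 51.9%, and 62.5% and 39.8%, of all genes. For the wider list it gave 26 to 90, 20 to 95 and 22 to 97 in the 3 lines and 68 to 109 on average. There the counts under 30 came without an array of the line's own groups, those of 86 and over without a hypoxic L858R array, and E746-E750 cells had 30 without either aerobic L858R array. Of the smaller counts, hypoxic L858R against WT had 1 without WT replicate 2, hypoxic E746-E750 against WT had 1 without any 1 of its 4 arrays, and the NCL difference in response kept its call without hypoxic WT replicate 1 or without a hypoxic L858R array, the NOP2 difference only in the latter case.

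With array weights the members called were 9 in the L858R and 29 in the E746-E750 response, 5, 7 and 2 between aerobic lines, 0 and 13 between hypoxic lines and 0 and 13 for the differences in response; the wider list had 95, 6 and 93. Of all genes, these fits called 4.69% and 53.5%, 15.5%, 19.9% and 4.73%, 1.28% and 41.8%, and 1.73% and 37.4%. In fits of only the arrays compared, the L858R response had 0 members (17 at an unadjusted p under 0.05), the aerobic comparisons 5, 7 and 2, the hypoxic ones 0 and 12, the differences in response 0 and 14, and the wider list 93, 0 and 88, beside 0%, 16.4%, 22.4% and 6.52%, 0% and 37.4%, and 1.61% and 35.3% of all genes. Without the hypoxic L858R arrays the E746-E750 response had 29, the aerobic comparisons 2, 1 and 1, hypoxic E746-E750 against WT 17, its difference in response 14, and the wider list 90 in WT and 97 in E746-E750 cells. Without all 4 mutant hypoxic arrays the aerobic comparisons had 3, 6 and 1, and the wider list 104 in WT cells. Leaving out the second arrays of both mutant hypoxic groups, chosen after seeing the data, gave 3, 6 and 1 aerobic, 13 and 15 hypoxic, 14 and 15 for the differences in response, and 104, 94 and 92 of the wider list.

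Median centring gave 2 for aerobic E746-E750 against WT, 9 and 10 hypoxic, and 4 and 12 for the differences in response; it put the median of all genes at -0.13, -0.06 and 0.26 in the 3 responses and that of the members in E746-E750 cells at -0.81. For hypoxic L858R against WT, an offset of 16 gave 6, cyclic loess 7 and the authors' values 4. For the difference in response of L858R cells, cyclic loess gave 3, the authors' values 0, the mean of a gene's probes 2 and eBayes with trend 0; for that of E746-E750 cells, an offset of 16 gave 0, cyclic loess 3, the authors' values 0 and the mean of probes 0. The cause was not tested in any of these.

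With the replicate number as a block, 24, 19 and 21 members were called in the 3 responses, 4 in hypoxic L858R against WT and 0 in its difference in response. Signal over background limits POLR1B, RRP9, PNO1 and UTP20, which fell below detection in at least 1 group, and second probes of NOP2, GAR1 and TSR1. Detection on 1 of 2 hypoxic arrays limits the L858R falls of BYSL, PPAN, RRP1B and the second NOP16 probe. It also limits the fall of PPAN in E746-E750 cells and those of RRP12 and NOLC1 in WT cells.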
